A study of Mus musculus with 12 samples.

Results

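Perilipins and the other proteins that coat, fuse and build lipid droplets were followed across 4 adipose depots of the mouse. They comprised 10 of the 47729 genes in each deposited table: the 5 perilipins Plin1 to Plin5, the CIDE genes Cidec and Cideb, and the droplet biogenesis genes Bscl2, Fitm1 and Fitm2. Members were taken by gene symbol, and the rule uses no measured value. Members and the gene lists used beside them were still chosen with earlier results of these data known. Counts and p-values for the lists are therefore descriptive. RNA was measured by bulk sequencing in 12 libraries, 3 per depot: brown fat from between the shoulder blades (interscapular, BAT) and white fat from the epididymal (EWAT), inguinal (IWAT) and retroperitoneal (RWAT) pads. All 4 groups shared every other label: wild-type male C57BL/6J mice, 6 to 10 weeks of age in the design text, a high-fat rodent diet and surgical denervation of the tissue. Every library was labelled as denervated, so depots could be compared and an effect of denervation or of diet could not be. The labels do not say whether the 3 libraries of a depot came from separate animals, and p-values therefore measure the spread between these libraries, which may be technical.

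Fat is stored in adipocytes as triacylglycerol inside lipid droplets, which are wrapped in a monolayer of phospholipid studded with proteins. Perilipins sit on that surface and govern the access of lipases: perilipin 1, the main coat of the large adipocyte droplet, holds the co-activator ABHD5 away from the lipase ATGL (gene Pnpla2) until the fat cell is stimulated. CIDE proteins exchange lipid between touching droplets and so enlarge them, while seipin (Bscl2) and the FIT proteins act at the endoplasmic reticulum where droplets bud.

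The promoters of 6 members are shown first, because 4 of these genes (Plin1, Plin4, Cidec and Fitm2) had nearly the same order of levels across libraries while Plin2 and Plin5 each had another. The windows are from RefSeq, build GRCm38.p6, and run from 250 bases before to 50 bases after the annotated start, on the gene's strand. Cidec and Plin5 each have 2 annotated starts there, and only a single window of each is shown and described. Capitals mark matches, on either strand, to any of 5 short motifs. These are the nuclear receptor half-site AGGTCA, found in 16.3% of all 32851 promoters of the table, and the E-box CACGTG, found in 7.2%. The others are GGGCGG, the letters of a GC box, found in 35.7%, CCAAT, found in 37.4%, and the TATA motif TATAA, found in 24.9%. The windows are chr7:79732727-79733026 for Plin1, chr17:56109733-56110032 for Plin4, chr6:113435711-113436010 for Cidec and chr2:163472580-163472879 for Fitm2, all on the minus strand. Plin2 lies at chr4:86670010-86670309 and Plin5 at chr17:56117499-56117798, also on the minus strand.
Plin1: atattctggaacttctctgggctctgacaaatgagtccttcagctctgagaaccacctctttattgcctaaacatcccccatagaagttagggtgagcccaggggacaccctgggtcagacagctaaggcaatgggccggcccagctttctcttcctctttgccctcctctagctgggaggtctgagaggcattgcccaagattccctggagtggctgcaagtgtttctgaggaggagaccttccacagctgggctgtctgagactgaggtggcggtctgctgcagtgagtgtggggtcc
Plin4: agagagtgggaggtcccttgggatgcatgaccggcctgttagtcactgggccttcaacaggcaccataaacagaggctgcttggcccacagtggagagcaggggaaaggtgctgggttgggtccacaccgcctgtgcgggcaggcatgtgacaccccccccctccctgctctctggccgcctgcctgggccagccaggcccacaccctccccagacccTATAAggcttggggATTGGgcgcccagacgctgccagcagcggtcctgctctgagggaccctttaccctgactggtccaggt
Cidec: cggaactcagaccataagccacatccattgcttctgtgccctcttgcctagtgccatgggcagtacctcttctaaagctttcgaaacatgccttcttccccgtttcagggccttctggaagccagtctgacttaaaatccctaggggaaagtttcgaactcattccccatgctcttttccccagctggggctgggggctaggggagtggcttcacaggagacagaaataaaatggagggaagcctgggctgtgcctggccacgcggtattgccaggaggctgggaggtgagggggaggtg
Fitm2: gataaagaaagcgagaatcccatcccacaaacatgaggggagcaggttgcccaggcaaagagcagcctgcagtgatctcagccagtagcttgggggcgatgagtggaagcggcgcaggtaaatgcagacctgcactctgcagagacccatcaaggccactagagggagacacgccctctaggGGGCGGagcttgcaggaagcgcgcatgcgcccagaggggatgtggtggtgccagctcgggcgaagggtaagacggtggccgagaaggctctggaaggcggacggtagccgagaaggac
Plin2: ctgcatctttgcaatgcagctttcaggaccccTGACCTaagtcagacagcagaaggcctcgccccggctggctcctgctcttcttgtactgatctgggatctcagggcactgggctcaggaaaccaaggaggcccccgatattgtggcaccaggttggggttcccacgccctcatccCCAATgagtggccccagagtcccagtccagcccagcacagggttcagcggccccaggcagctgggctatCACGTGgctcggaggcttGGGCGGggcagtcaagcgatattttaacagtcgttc
Plin5: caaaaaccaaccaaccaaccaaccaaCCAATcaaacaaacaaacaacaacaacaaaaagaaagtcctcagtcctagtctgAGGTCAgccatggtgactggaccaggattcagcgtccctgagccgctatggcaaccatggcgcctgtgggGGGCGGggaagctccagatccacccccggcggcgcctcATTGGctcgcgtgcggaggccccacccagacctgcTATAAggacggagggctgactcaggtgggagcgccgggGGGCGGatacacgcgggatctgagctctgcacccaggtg
No capitals stand in the Plin1 and Cidec windows, which held none of the 5 motifs. Plin4 held a TATA motif and a CCAAT box, and Fitm2 a GC box. Plin2 held 4 of the 5, the half-site, a CCAAT box, the E-box and a GC box, and Plin5 held the half-site, 2 GC boxes, 2 CCAAT boxes and a TATA motif. None of the 5 stood in all 4 of the genes with nearly the same order of levels. Plin4 and Plin5 are neighbours on chromosome 17, 1797 bases apart, and their levels followed different orders.

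Total expected counts ranged from 12933516 to 21106554 per library. Levels between libraries are given as CPM, counts scaled to library size times its TMM factor (a correction for composition), and levels between genes as TPM, transcripts scaled to length and library. TPM was not used between libraries where CPM could be, because the small structural RNAs Rn7s1, Rn7s2 and Rn7sk took from 11.5% of all TPM in EWAT 1 to 54.0% in EWAT 2. Of the brown fat markers, Ucp1, which uncouples respiration in brown adipocytes, was high in 1 of the BAT libraries. It stood at 1489 CPM in BAT 1, 0.254 CPM in BAT 2 and 1.70 CPM in BAT 3, against up to 8.66 CPM in white fat. Of the 9 brown adipocyte markers tested, 1 was called higher in each BAT comparison with white fat (edgeR), beside at most 0.143% of all genes. Whether BAT 2 and BAT 3 held brown fat was not tested. Skeletal muscle transcripts (14 markers) summed to 3678 CPM in RWAT 3, 699.6 CPM in RWAT 1 and 218.3 CPM in BAT 1, and to at most 59.7 CPM in the other 9 libraries. Counts of members called by edgeR in BAT or RWAT comparisons, and the BAT differences of Plin5, are also given with libraries left out. Most other values that rest on BAT or RWAT are given with all libraries only. In bulk tissue, fewer cells of a type and less RNA per cell cannot be told apart.

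Plin2 was the most abundant perilipin by TPM in all libraries but BAT 3, IWAT 1 and IWAT 2, and its share of the family separated EWAT from IWAT. Of the summed perilipin TPM, Plin2 made up 93.7%, 63.9% and 90.4% in EWAT 1 to 3 and 19.9%, 17.6% and 37.8% in IWAT 1 to 3. Every EWAT library lay above every IWAT library. Plin1 and Plin4 filled most of the rest, with similar means: they held 35.9% ± 12.1 and 37.3% ± 7.22 of the perilipin TPM in IWAT (SD, n = 3) but 7.45% ± 6.89 and 8.03% ± 9.20 in EWAT. In RWAT Plin2 held 67.1%, 88.2% and 57.7%, above every IWAT library and overlapping EWAT. BAT spanned most of the range, with 65.8% and 83.9% Plin2 in BAT 1 and BAT 2 and 32.7% in BAT 3, which lay within the IWAT range. The TPM ratio of Plin2 to Plin1 ran from 0.416 in IWAT 1 to 35.8 in EWAT 1. Plin3 stayed between 1.299% and 2.64% everywhere, and Plin5 reached 2.68% in BAT 1 against 0.0539% to 0.395% in the other libraries. A share within a library does not depend on how libraries are scaled.

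**Figure D1:**
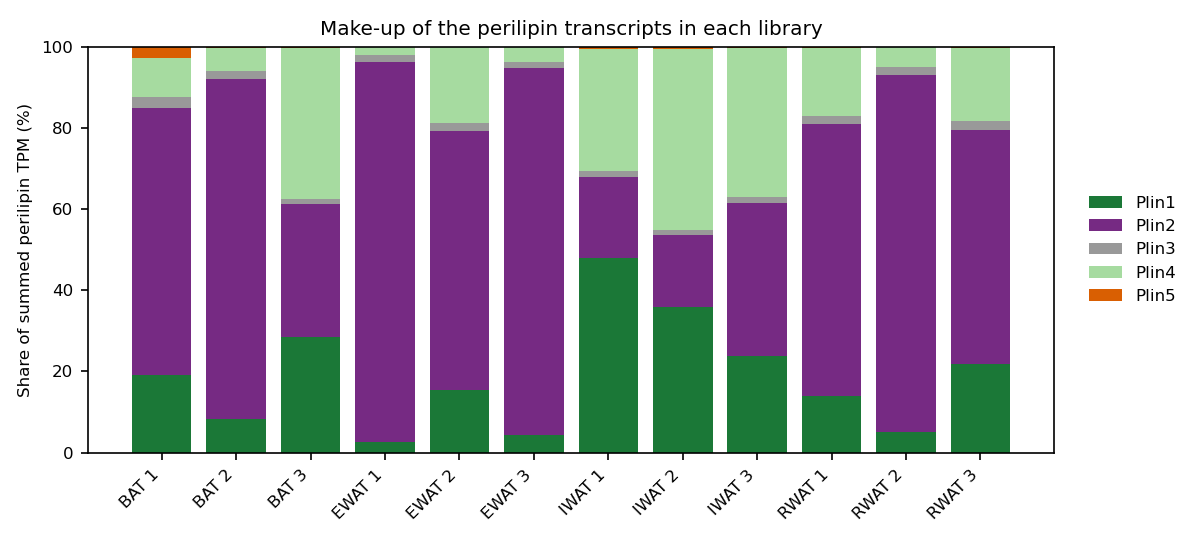
Share of summed Plin1 to Plin5 TPM (y axis, percent) held by each perilipin in each of the 12 libraries (x axis, 3 per depot). Plin2 fills 63.9% to 93.7% of the EWAT bars and 17.6% to 37.8% of the IWAT bars.

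Between depots, IWAT and EWAT were the pair in which droplet genes passed the test. Bscl2 and Fitm2 were higher in IWAT and Plin2 was lower there, which makes 3 of the 8 members tested. Across all 18942 genes tested, 11.0% were called in this comparison (edgeR quasi-likelihood test, adjusted p below 0.05), 1037 higher and 1045 lower in IWAT. Cideb and Fitm1 had too few reads to be tested. In 7 of the 8 members, all but Plin3, the IWAT libraries did not overlap the EWAT libraries, as was so for 32.4% of all genes tested. The median log2 fold change of the 8 was 1.77 beside 0.02 over all genes tested. The count of 3 was 6 with DESeq2, which added Plin1, Plin4 and Plin5 and called 20.0% of all genes. It was 1 with the legacy edgeR fit (9.03% of all genes) and 0 with an adipocyte marker score as a covariate, where 0.0106% of all genes were called. It was 0 without EWAT 1, EWAT 3, IWAT 1, IWAT 2 or RWAT 1, where 2.95%, 1.35%, 1.55%, 0.284% and 6.92% of all genes were called. It was 1 without RWAT 2 (8.85% of all genes) and 2 to 4 without any other single library (8.88% to 14.1%).

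None of the 8 passed in the other comparisons, which share libraries with this one and with each other. The share of all genes called was 0.0528% for BAT against the white depots' mean, 0.143% for BAT against EWAT, 0.0264% for BAT against IWAT and 0.0211% for BAT against RWAT. It was 0.00528% for RWAT against EWAT, 0.00% for RWAT against IWAT and 1.14% for any difference between the 4 depots. Against shares this small, 0 of 8 is no result about these genes. At an unadjusted p below 0.05 the members with a difference numbered 1, 2, 1 and 1 in the 4 BAT comparisons in that order, 0 in RWAT against EWAT, 4 in RWAT against IWAT and 5 for any difference. The shares of all genes at that unadjusted p were 4.92%, 9.95%, 13.2% and 4.72% in the BAT comparisons, 4.81%, 20.6% and 20.8%. DESeq2 called 1, 1, 0, 0, 0, 1 and 5 members in the same order, beside 0.950%, 2.52%, 1.69%, 0.238%, 0.686%, 6.07% and 12.8% of all genes. The limma-voom test called 0 members in each, beside at most 0.211% of all genes. The edgeR counts for RWAT against the other depots were 0 without RWAT 1, beside at most 0.0256% of all genes. They were 0 without RWAT 3, beside at most 0.160%. Those for BAT were 0 without BAT 1, beside at most 0.0154%. Beside such shares these counts of 0 are again no result about the members. Without BAT 2, Plin5 alone was called in BAT against the white mean and against EWAT, beside 1.28% and 1.26% of all genes. In RWAT against IWAT, 6 of the 8 had no overlap between libraries, beside 26.1% of all genes tested. Their median log2 fold change was -1.34, beside -0.01 over all genes.

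**Figure D2:**
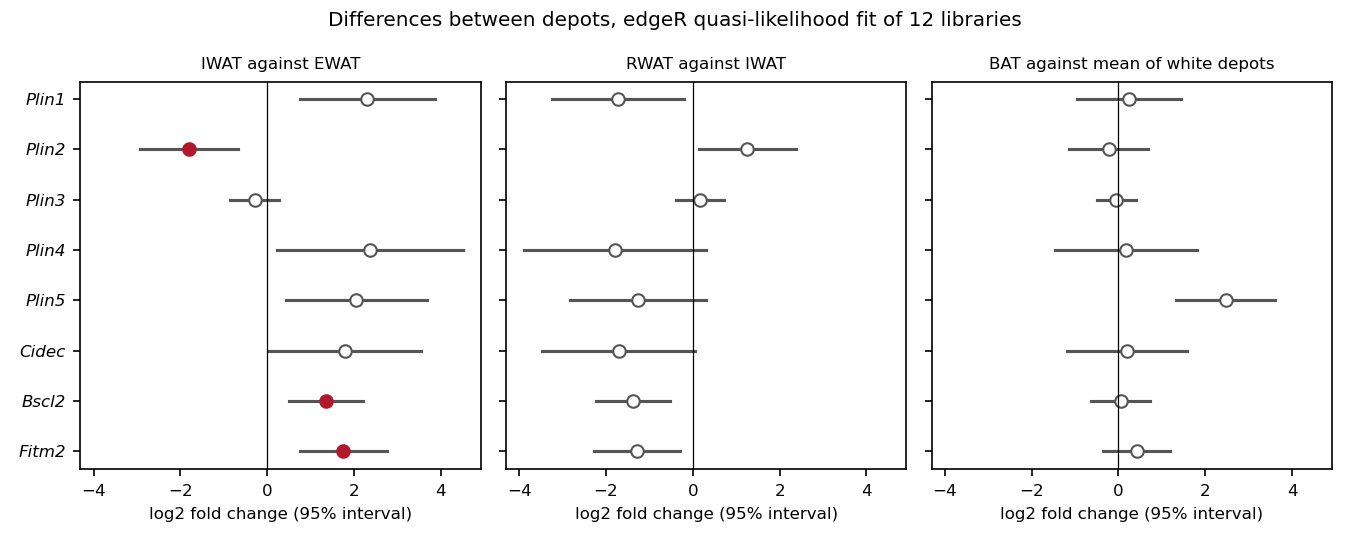
Log2 fold change with its 95% interval (x axis) of the 8 members tested (y axis) for IWAT against EWAT, RWAT against IWAT and BAT against the mean of the white ones, from the edgeR fit of 12 libraries. Filled red points passed the test: Plin2, Bscl2 and Fitm2 in IWAT against EWAT.

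Ordered by mean level, neighbouring depots could not be separated. IWAT stood highest and EWAT lowest for Plin1, Plin4, Cidec and Fitm2, with BAT above RWAT between them. Bscl2 had the order IWAT, BAT, EWAT, RWAT, Plin2 and Plin3 had EWAT, RWAT, BAT, IWAT, and Plin5 had BAT, IWAT, RWAT, EWAT. Of the 24 steps between neighbours in these orders, 23 had overlapping libraries, and the exception was Plin5 between IWAT and RWAT. Adjusted p of the steps ranged from 0.340 to 0.999 (edgeR).

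**Figure D3:**
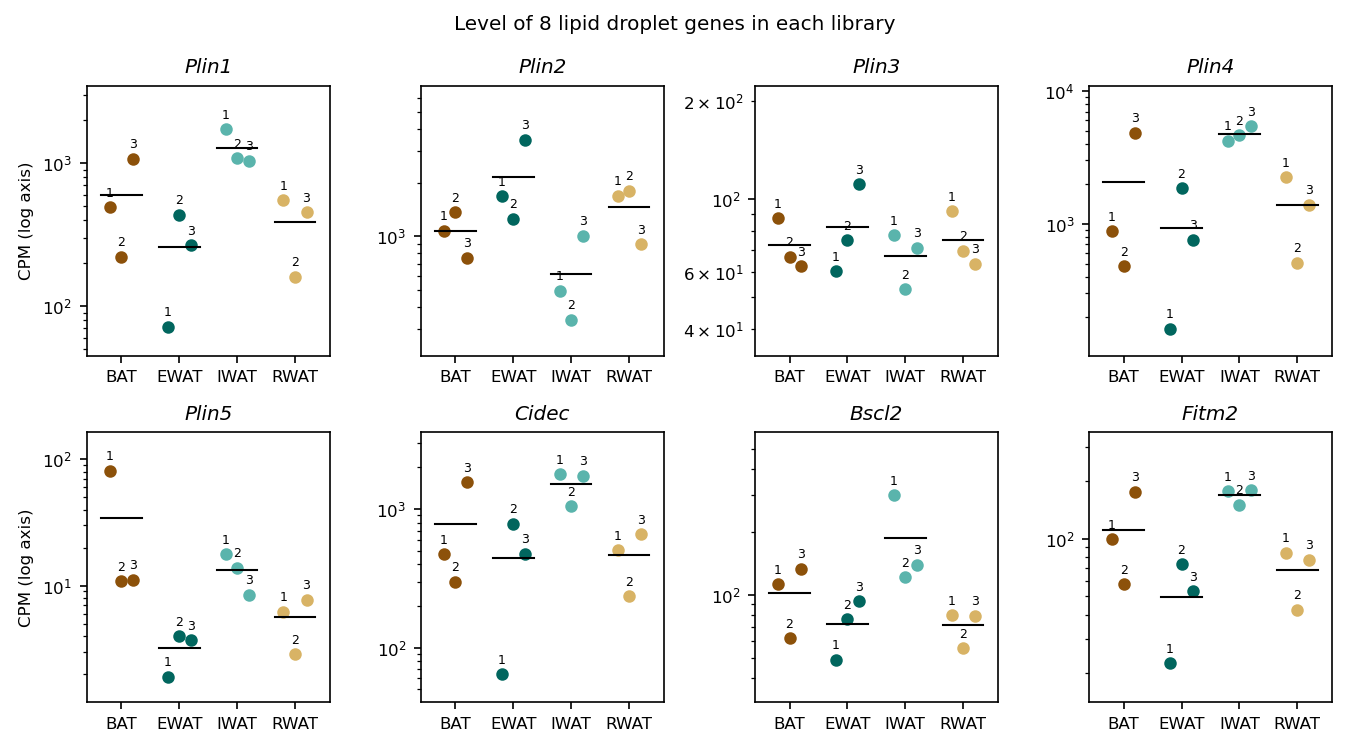
CPM (log axis, a separate scale in each panel) of 8 members in each library, grouped by depot, with the replicate number beside each point and the depot mean as a bar. The IWAT libraries lie above the EWAT libraries for Plin1, Plin4, Plin5, Cidec, Bscl2 and Fitm2 and below them for Plin2.

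Plin2, also called adipophilin, is the perilipin found on droplets of most cell types, macrophages included. Its level was 1677, 1253 and 3490 CPM in EWAT 1 to 3 and 494.5, 339.8 and 1007 CPM in IWAT 1 to 3. RWAT 1 to 3 had 1689, 1800 and 900.0 CPM, and the BAT libraries 1075, 1367 and 754.9 CPM. All 3 IWAT libraries lay below all 3 EWAT libraries, and RWAT and BAT lay between with overlap on either side. The mean was 613.7 ± 349.1 CPM in IWAT and 2140 ± 1188 CPM in EWAT (SD, n = 3), a log2 fold change of -1.80 ± 0.52 (SE; 3.49-fold lower; edgeR adjusted p = 0.0475). The call was lost when any of 7 of the 12 libraries was left out (BAT 1, EWAT 1, EWAT 3, IWAT 1, IWAT 2, RWAT 1 or RWAT 2), with adjusted p from 0.0317 to 0.163 over all 12. On the log2(TPM + 1) scale with limma it was -1.48 with an adjusted p of 0.226, and there EWAT 2, at 724.5 TPM, lay below IWAT 3, at 1304 TPM.

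Macrophage markers moved with Plin2. The 8 macrophage markers tested summed to 9118 to 10710 CPM in EWAT and 2908 to 3796 CPM in IWAT, with none at 0, and 4 of the 8 were called lower in IWAT. Lipid-associated macrophage markers (9 genes, such as Trem2 and Gpnmb, both known from lipid-laden macrophages) summed to 4499 to 10110 CPM in EWAT and 235.2 to 1692 CPM in IWAT, and 2 of 9 were called lower. These 4 of 8 and 2 of 9 calls stand beside the 11.0% of all genes called in that comparison (edgeR). Over the 12 libraries Plin2 had a Pearson r of 0.903 with the macrophage score, which is the mean log2 CPM of the markers (permutation p = 8e-05, 0.000427 after Benjamini-Hochberg adjustment over 32 relations of members with marker scores; Spearman rho 0.895, permutation p = 0.00023). The r was 0.771 without IWAT 1 and IWAT 2, the libraries farthest from the median score, and 0.731 after depot means were removed. The permutations, here and for the other marker scores, exchanged libraries freely across depots. Their p-values therefore do not separate differences between depots from variation within them, and none was computed with depot means removed. With the pan-adipocyte score Plin2 had an r of -0.659 (adjusted permutation p = 0.0674) and a rho of -0.755 (adjusted permutation p = 0.0190). The part of macrophages in the Plin2 difference was not tested.

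**Figure D4:**
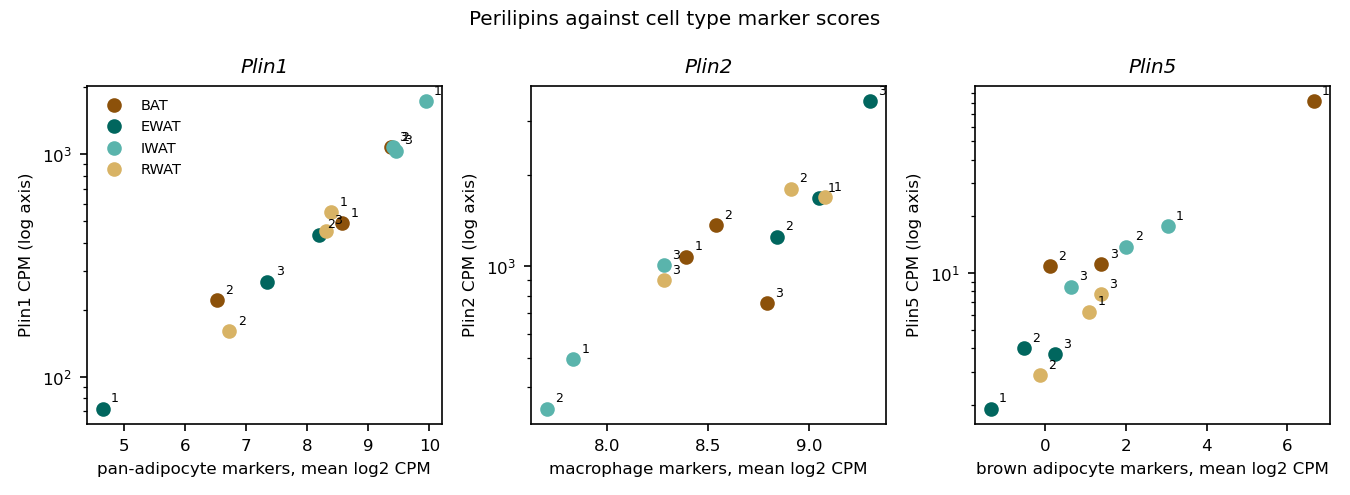
CPM (log axis) of Plin1, Plin2 and Plin5 in the 12 libraries against the mean log2 CPM of pan-adipocyte, macrophage and brown adipocyte markers, coloured by depot with the replicate number beside each point. Points run from lower left to upper right in each panel, with r of 0.984 for Plin1, 0.903 for Plin2 and 0.940 for Plin5.

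Plin1 encodes the perilipin of large adipocyte droplets. Its level was 1728, 1079 and 1039 CPM in IWAT 1 to 3 and 71.9, 435.3 and 267.3 CPM in EWAT 1 to 3. RWAT held 550.1, 160.1 and 453.5 CPM, and the BAT libraries 490.1, 221.8 and 1076 CPM. IWAT lay above EWAT and RWAT without overlap, and BAT 3 reached into the IWAT range. The log2 fold change between IWAT and EWAT was 2.31 ± 0.71 (SE; 4.97-fold), with an edgeR adjusted p of 0.0566. That value missed the threshold, and it passed without BAT 2 (0.0402), BAT 3 (0.0432) or EWAT 2 (0.0496). It also passed with DESeq2 (adjusted p = 0.00442) and with limma on log2(TPM + 1) (adjusted p = 0.00856).

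Plin4, an adipocyte perilipin found on small nascent droplets, had 4212, 4647 and 5449 CPM in IWAT and 161.6, 1859 and 755.7 CPM in EWAT. RWAT had 2236, 509.1 and 1389 CPM, and the 3 BAT libraries 874.6, 476.6 and 4846 CPM. BAT 3 was again the library that reached the IWAT range, and the other 2 BAT libraries lay far below it. Although its IWAT to EWAT ratio was the highest of the members, at 5.15-fold (log2 2.37 ± 0.98, SE), its error was also the largest of the 8 and its edgeR adjusted p was 0.127. Per length, Plin4 reached 1288 TPM in IWAT 2, near the 1038 TPM of Plin1 there, and was 44.3 TPM in EWAT 1.

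Plin3, or TIP47, is a widely expressed perilipin that moves between cytosol and droplets, and it was the most even member. It ranged from 52.9 CPM in IWAT 2 to 111.2 CPM in EWAT 3, and from 23.2 to 57.6 TPM. All depots overlapped. Its log2 difference between IWAT and EWAT was -0.29 with a 95% interval from -0.85 to 0.27 (edgeR adjusted p = 0.482). That interval, unadjusted for the number of genes, lay within a 2-fold difference in either direction. It covers only the spread between these libraries, which may be technical. With the marker scores of adipocytes and macrophages its r was 0.039 and 0.481 (adjusted permutation p = 0.934 and 0.192).

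Plin5 is the perilipin of oxidative tissues such as heart, muscle and brown fat, where it ties droplets to mitochondria. It was low in white fat: 1.904, 4.0 and 3.71 CPM in EWAT, 6.23, 2.86 and 7.73 CPM in RWAT and 17.7, 13.8 and 8.47 CPM in IWAT. Among the BAT libraries it was 81.7 CPM in BAT 1, 10.9 CPM in BAT 2 and 11.1 CPM in BAT 3. BAT 1 stood apart, and BAT 2 and BAT 3 lay inside the IWAT range. BAT did not overlap EWAT or RWAT. The log2 fold change of BAT over the mean of the white depots was 2.48 ± 0.52 (SE; 5.57-fold; edgeR adjusted p = 0.133); it was 0.83 without BAT 1 (adjusted p = 1), 2.90 without BAT 2 (adjusted p = 0.0183) and 2.90 without BAT 3 (adjusted p = 0.120). Against EWAT alone it was 3.43 ± 0.77 (adjusted p = 0.124), 1.78 without BAT 1 and 3.86 without BAT 2 (adjusted p = 0.0318). DESeq2 called both (adjusted p = 0.00374 and 0.000224).

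Brown adipocyte markers moved with Plin5. The list of 10 summed to 2496 CPM in BAT 1, 23.7 CPM in BAT 2, 32.2 CPM in BAT 3 and 170.0 CPM in IWAT 1, the next highest library. The r of Plin5 with the brown score was 0.940 over 12 libraries (adjusted permutation p = 0.00016) and the rho was 0.881 (adjusted permutation p = 0.00165). Without BAT 1 and EWAT 1 the r was 0.806, and with depot means removed it was 0.958. With the skeletal muscle score the r of Plin5 was 0.315 (adjusted permutation p = 0.446) and the rho 0.308 (adjusted permutation p = 0.462). That r was 0.819 without RWAT 3 and RWAT 1, the libraries farthest from the median score, and 0.751 with depot means removed. The part of brown adipocytes or of muscle RNA in the Plin5 differences was not tested. Cidea, the CIDE gene of brown fat and one of those markers, had 308.9, 0.558 and 2.30 CPM in BAT 1 to 3 and 22.2, 12.8 and 2.30 CPM in IWAT 1 to 3. The IWAT to EWAT difference of Plin5 was 2.06 ± 0.74 on the log2 scale (edgeR adjusted p = 0.0873), without overlap between the libraries.

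Cidec, known as FSP27, promotes the fusion of adipocyte droplets into a large unilocular one. It had 1787, 1054 and 1739 CPM in IWAT 1 to 3 and 64.4, 783.3 and 478.2 CPM in EWAT 1 to 3. It had 505.9, 234.4 and 657.7 CPM in RWAT, and 471.0, 298.2 and 1571 CPM in the BAT libraries. IWAT lay above EWAT and RWAT in every library, and BAT 3 again lay in the IWAT range. The log2 fold change between IWAT and EWAT was 1.79 ± 0.80 (SE; 3.45-fold; edgeR adjusted p = 0.156). By TPM Cidec exceeded Plin1 in all 12 libraries, from 78.9 TPM in EWAT 1 to 1884 TPM in IWAT 3.

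Cideb, the CIDE gene best known from liver and intestine, was near the limit of detection. Its expected counts over the 3 libraries were 15.7 in BAT, 7.89 in EWAT, 1.01 in IWAT and 2.07 in RWAT, and 6 of the 12 libraries were at 0. The highest level was 0.52 TPM, in BAT 1. Of its exonic bases 76.3% are shared with Nop9 on the opposite strand in GENCODE M21, and the strand setting of the counting is not given in the sources used here, so these reads are of uncertain origin.

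Bscl2 encodes seipin, the endoplasmic reticulum protein at droplet budding sites whose loss causes congenital lipodystrophy. It had 299.3, 121.8 and 139.1 CPM in IWAT 1 to 3 and 48.9, 76.3 and 93.3 CPM in EWAT 1 to 3. RWAT held 79.9, 55.4 and 79.4 CPM, and the BAT libraries 112.4, 61.9 and 133.2 CPM. IWAT lay above EWAT and RWAT without overlap, with IWAT 1 more than 2-fold above the other IWAT libraries. The difference between IWAT and EWAT was 1.36 ± 0.39 on the log2 scale (SE; 2.56-fold; edgeR adjusted p = 0.0468). It was 0.84 without IWAT 1 (adjusted p = 0.163), and the call was also lost without BAT 1, IWAT 2, or any EWAT or RWAT library, with adjusted p from 0.0331 to 0.163 over the 12 omissions. Gng3 on the opposite strand shares 6.7% of its exonic bases.

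Fitm2 encodes the widely expressed FIT protein that partitions triacylglycerol into budding droplets. It had 175.9, 149.8 and 177.7 CPM in IWAT 1 to 3 and 22.5, 73.6 and 53.1 CPM in EWAT 1 to 3. RWAT 1 to 3 had 84.5, 42.7 and 77.8 CPM, and the BAT libraries 99.5, 58.1 and 174.8 CPM. The IWAT libraries were close to each other and lay above all EWAT and RWAT libraries. The mean was 167.8 ± 15.6 CPM in IWAT and 49.7 ± 25.7 CPM in EWAT (SD, n = 3), a log2 fold change of 1.75 ± 0.46 (SE; 3.38-fold; edgeR adjusted p = 0.0372). The call was lost without EWAT 1, EWAT 3, RWAT 1 or any IWAT library (adjusted p up to 0.105) and held in the other 6 omissions.

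Fitm1, the FIT gene of skeletal muscle and heart, had 51.1 expected counts in RWAT, 11 in BAT, 1 in EWAT and 0 in IWAT, where a count of 0 allows up to 0.0539 CPM over the depot's reads. Of the RWAT counts, 36 were in RWAT 3, 14.1 in RWAT 1 and 1 in RWAT 2, and BAT 1 held 7 of those in BAT. These are the libraries in which the 14 skeletal muscle markers summed highest, at 3678, 699.6 and 218.3 CPM, against 18.3 CPM in RWAT 2. The part of muscle RNA in these counts was not tested. Without the filter on low counts, Fitm1 in RWAT against IWAT had an edgeR adjusted p of 0.155 and Cideb one of 0.945.

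Adipocyte markers moved with Plin1, Plin4, Cidec, Bscl2 and Fitm2. The 14 pan-adipocyte markers summed to 20910 to 34450 CPM in IWAT, 3262 to 12280 CPM in EWAT, 6500 to 22560 CPM in BAT and 7442 to 13940 CPM in RWAT, with none at 0. All 14 had positive log2 fold changes in IWAT against EWAT, with a median of 2.15, and 1 was called, beside 11.0% of all genes. Markers of other cells also differed in that comparison, and their calls stand beside the same 11.0%. Of 9 mesothelial markers 7 were called lower in IWAT (median log2 fold change of the 9 -5.19), and the 9 summed to 54.95 to 151.9 CPM in EWAT and 3.12 to 5.69 CPM in IWAT, with none at 0. Of 8 fibroblast and preadipocyte markers 5 were called higher in IWAT (median of the 8 1.55), while 2 had negative log2 fold changes. None of the 8 was at 0, and their sums overlapped, 9169 to 12400 CPM in IWAT and 7176 to 12390 CPM in EWAT. The part of these cells in the members' differences was not tested. The r with the pan-adipocyte score over 12 libraries was 0.984 for Plin1, 0.954 for Plin4, 0.963 for Cidec, 0.969 for Fitm2 and 0.851 for Bscl2 (adjusted permutation p from 0.00016 to 0.00334). The rho was 0.965, 0.902, 0.888, 0.965 and 0.944 in that order (adjusted permutation p from 0.00032 to 0.00128). Leaving out EWAT 1 and BAT 2, the libraries farthest from the median score, gave r of 0.993, 0.911, 0.918, 0.980 and 0.849, and removing depot means gave 0.978, 0.922, 0.943, 0.979 and 0.768. With the score as a covariate, the log2 difference between IWAT and EWAT was 0.47 for Fitm2 (edgeR adjusted p = 0.382), 0.41 for Bscl2 (0.747), 0.38 for Plin1 (0.705), 0.10 for Plin4 (0.981), -0.20 for Cidec (0.920) and -1.46 for Plin2 (0.397). In that fit 0.0106% of all genes were called. The score was taken from these same libraries and lay at 9.40 to 9.94 in IWAT and 4.66 to 8.19 in EWAT. The fit therefore cannot separate adipocyte content from depot. The part of adipocyte content in these differences was not tested.

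Genes most like each member over the 12 libraries were found among all genes with at least 1 CPM on average, as a description with no test. For Plin1 they were Lipe (hormone-sensitive lipase, r = 0.994), Optn (0.991) and Hspa12a (0.989), for Plin4 Apol6 (0.995), Nnat (0.991) and Clstn2 (0.990), and for Fitm2 Pnpla2 (0.991), Lipe (0.987) and Tusc5 (0.984). For Cidec they were Fam213a (0.988), Fabp4 (0.988) and Slc6a13 (0.986), and for Bscl2 March5 (0.983), Marc2 (0.980) and Pex3 (0.980). Plin2 had P2ry6 (0.993), Arpc3 (0.988) and Tuba1c (0.985), and Plin3 had Psmb6 (0.941), Ttc1 (0.934) and Atp6v1d (0.933). Plin5 had Cidea (0.946), Lace1 (0.920) and Clstn3 (0.916). The libraries share depth, depot and tissue make-up, so these values do not come from independent points.

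**Figure D5:**
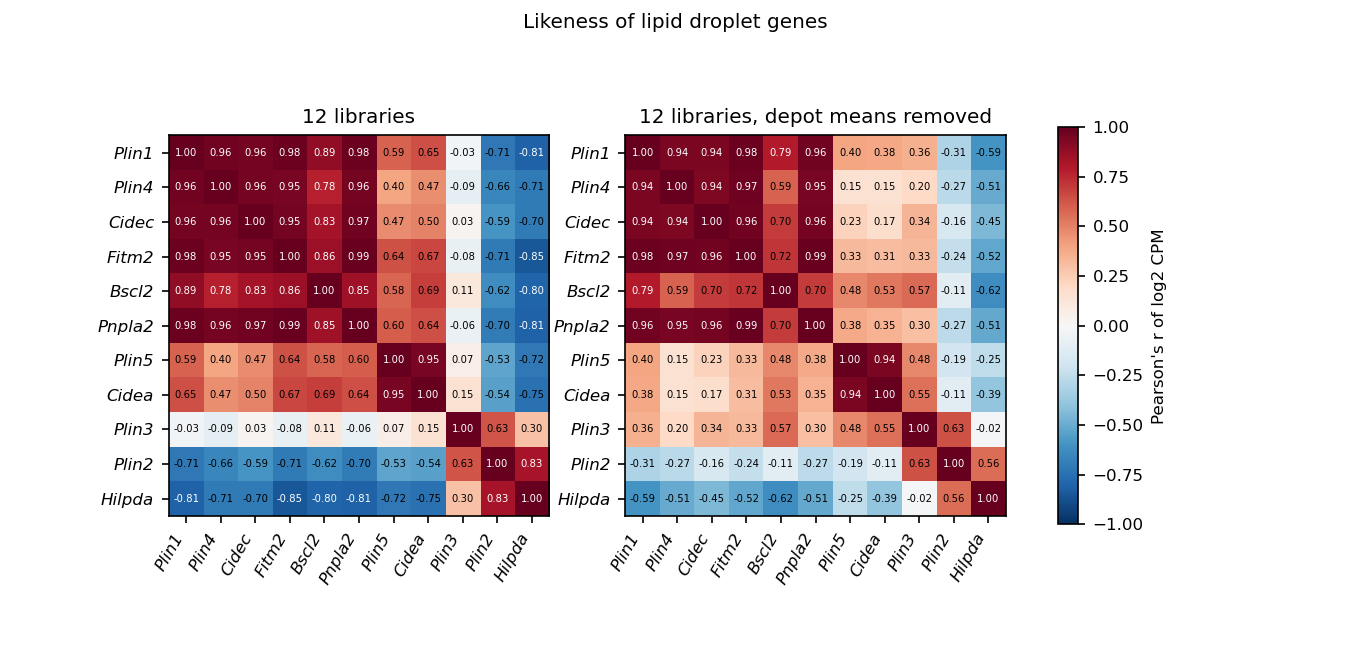
Pearson's r of log2 CPM between members and 3 droplet partners (both axes), over the 12 libraries as they are (left) and after removing depot means (right). Plin1, Plin4, Cidec, Fitm2 and Pnpla2 form a block with r of at least 0.935 in both panels, while Plin2 and Hilpda have negative r with them.

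Other droplet genes were examined as a list of 31 partners (lipases, their regulators, and enzymes of triacylglycerol synthesis), all of which were tested. In IWAT against EWAT 3 were called higher, 1 was called lower and the median log2 fold change was 1.09 (edgeR). Called or not, 25 had positive and 6 had negative log2 fold changes. These 4 of 31 stand beside the 11.0% of all genes called. DESeq2 called 18 of the 31, beside 20.0% of all genes, and limma-voom 3, beside 9.96%. Hilpda, an inhibitor of ATGL, was the one called lower. It had 124.8, 89.0 and 96.7 CPM in EWAT, 12.3, 12.98 and 27.4 CPM in IWAT, 64.0, 60.2 and 69.3 CPM in RWAT, and 25.8, 41.4 and 17.4 CPM in the BAT libraries. EWAT lay above all other depots without overlap, and RWAT lay above IWAT and BAT. Its log2 fold change in IWAT against EWAT was -2.56 ± 0.36 (SE; edgeR adjusted p = 0.00867), and it also passed for any difference between depots (adjusted p = 0.0243). The genes called higher in IWAT were Agpat9, the glycerol-phosphate acyltransferase now named Gpat3 (log2 2.11, adjusted p = 0.0406), Gpat4 of the same enzyme family (0.65, adjusted p = 0.0464) and Aifm2, an oxidoreductase on droplets and membranes (1.52, adjusted p = 0.0481). The genes of lipolysis did not pass with edgeR, where the adjusted p was 0.0541 for Pnpla2 (log2 2.28), 0.0649 for Lipe (2.35), 0.0803 for Abhd5 (1.09) and 0.0534 for G0s2, another ATGL inhibitor (2.65). Cidea did not pass either (5.77, adjusted p = 0.0952). With DESeq2 all 5 passed, with adjusted p of 0.00422, 0.00665, 0.0372, 0.00346 and 0.0161 in that order, and with limma-voom none did (0.0512 to 0.352).

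Pnpla2, the ATGL gene, had 933.3, 833.3 and 1034 CPM in IWAT and 51.4, 320.7 and 204.4 CPM in EWAT, without overlap. Of the partners, 0 of 31 were called in the other 6 comparisons by edgeR, beside at most 0.143% of all genes. At an unadjusted p below 0.05 there were 3, 3, 1 and 4 in the BAT comparisons in the order above. There were 0 in RWAT against EWAT and 18 in RWAT against IWAT. The shares of all genes with such a p were 4.92%, 9.95%, 13.2%, 4.72%, 4.81% and 20.6%. DESeq2 called 1, 3, 0, 0, 0 and 7 in these, beside 0.950%, 2.52%, 1.69%, 0.238%, 0.686% and 6.07% of all genes. The limma-voom test called 0, beside at most 0.0845%. Of 12 transcriptional regulators of droplet genes, 3 were called higher and 0 lower in IWAT against EWAT by edgeR (11.0% of all genes called), with a median log2 fold change of 1.34. DESeq2 called 7 of the 12, beside 20.0% of all genes, and limma-voom 4, beside 9.96%. The 3 called by edgeR were Srebf1, a driver of lipid synthesis (1.76, adjusted p = 0.0187), Rxra, the partner of PPAR receptors (1.06, adjusted p = 0.0279), and Cebpa, an adipocyte differentiation factor (1.46, adjusted p = 0.0388). Pparg, the receptor that drives Plin1 and Cidec in adipocytes, had a log2 fold change of 1.67 and an adjusted p of 0.0800 with edgeR and 0.0236 with DESeq2. Cebpa and Pparg are also among the 14 pan-adipocyte markers. In the other 6 comparisons edgeR called 0 of 12, with 2, 4, 3, 1, 0 and 6 at an unadjusted p below 0.05. DESeq2 called 1, 1, 0, 0, 0 and 3, and limma-voom 0. The shares of all genes beside these counts are those given for the partners.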

How the data were processed

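The submitters' processing notes name Trimmomatic 0.36, RSEM 1.3.0, DESeq2 1.10.1 and the build GRCm38.p4. The aligner, the annotation release and the strand setting are not given in the sources used here. Libraries were depleted of ribosomal RNA and read as single ends of 75 bp, per the labels' protocols. Per the file headers, the deposited tables hold for each gene the RSEM expected count, an estimated read count that is not normalized between libraries. They also hold the deposited TPM, scaled by the effective length that stands beside it.

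After rounding the expected counts, 18942 genes passed filterByExpr (edgeR 4.0.16, minimum count 10), and TMM factors lay between 0.846 and 1.14. The biological coefficient of variation was 0.385. Differences were tested with the two-sided edgeR quasi-likelihood F test (bias-adjusted version, R 4.3.3) in 1 joint fit of the 12 libraries with depot as its only term, and p was adjusted by the Benjamini-Hochberg method over all genes tested, with a threshold of 0.05. The SE is the log2 fold change divided by the root of F, and intervals are at 95%. Likeness is Pearson's r of log2 CPM with a prior count of 2. Relations with marker scores used 100000 permutations (scipy 1.17.1), so 1e-05 is the smallest p they can give. Libraries were exchanged freely across depots. The fit was checked on simulated data. Floors (3 counts) cover counting error only.

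All 10 members were named. The other named genes were the 3 most alike per member, list members past the threshold (up to 4 per direction), and Pnpla2, Lipe, Abhd5, G0s2, Cidea and Pparg. Members and lists were chosen with earlier results of these data known. Symbols of the lists, 153 in all, were all found, and 1 macrophage symbol shared by 2 gene IDs was left out. Positions are from GENCODE M21, and 10 of 10 promoters matched in RefSeq. Alternatives were RLE and upper-quartile scaling, other filters, DESeq2 1.42.0, limma-voom (limma 3.58.1), fits of only the groups compared, a replicate block, the adipocyte score as a covariate, log2(TPM + 1) with limma, leaving out libraries, and, chosen after seeing the data, the legacy quasi-likelihood fit.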

Additional observations from a re-analysis of the deposited data

How the results depend on the processing

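Of 1584 values of a member in a comparison under an alternative, 1520 kept their side of the threshold, 24 passed it newly and 40 lost it. No called value changed sign, and 64 values that were called neither before nor after did. An edgeR fit of only the IWAT and EWAT libraries called Fitm2 and Plin5, beside 8.16% of all genes. In that fit Plin2 (adjusted p = 0.0898) and Bscl2 (0.0701) lost their calls. The count of 3 members in IWAT against EWAT was 6 with DESeq2 and 5 on log2(TPM + 1) with limma, beside 20.0% and 7.42% of all genes. It was 2 with limma-voom (9.96%) and 2 with no filter on low counts (5.05%), with Bscl2 lost in both. It was 1 without EWAT 1 and BAT 2 together (5.51%) and 1 with the legacy edgeR fit (9.03%), an alternative chosen after seeing the data. It was 0 with the adipocyte score as a covariate (0.0106%) or without RWAT 1 and RWAT 3 together (5.58%). Leaving out 1 library gave 0 to 4, beside the shares of all genes given above: 0 without EWAT 1, EWAT 3, IWAT 1, IWAT 2 or RWAT 1, and 1 without RWAT 2. DESeq2 gave 5 members for any difference, 1 for BAT against the white mean, 1 for BAT against EWAT and 1 for RWAT against IWAT. These stand beside 12.8%, 0.950%, 2.52% and 6.07% of all genes. BAT against the white mean gave 1 without EWAT 1 and BAT 2 together (1.07% of all genes). Leaving out 1 library gave 0 to 1 for it, for BAT against EWAT and for any difference. Without BAT 2 the call was Plin5 in all 3, beside 1.28%, 1.26% and 4.17% of all genes. Without BAT 3 it was Plin5 for any difference (2.04%), and without RWAT 2 it was Fitm1 for any difference (1.44%). Fitm1 was tested there only because RWAT 1 and RWAT 3, where it was highest, carried it past the filter, so that call has no weight. The cause of these shifts was not tested. With the replicate number as a block, IWAT against EWAT gave 0 members, beside 5.62% of all genes. Deviations of same-numbered libraries all correlated above 0.1 in 1 of 6 pairs of depots, BAT and RWAT. With 3 libraries per depot this cannot decide whether same-numbered libraries share animals. The main fit treated them as unpaired, because the labels do not say that the numbers pair them. The 3 libraries per depot and, for Cideb and Fitm1, a few reads limit what could be detected.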
